A study of Mus musculus with 6 samples.

Results

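The genes of 9 transcription factors tied to the identity of collecting duct principal cells or to transcription of the water channel gene Aqp2 were followed in clones of a kidney cell line. They were Tfcp2l1, Gata2, Gata3, Elf3, Elf5, Ehf, Klf5, Grhl2 and Foxa1, picked by gene symbol; all 9 were found among the 20896 genes of the deposited table. Total RNA had been sequenced from 6 clonal lines of mpkCCDc11, a mouse line derived from the cortical collecting duct. Of these, 3 were control clones and 3 were labelled PKA dKO, double knockouts of protein kinase A, which cyclic AMP switches on once vasopressin has bound its V2 receptor. Each clone gave 1 library, so the spread within a group includes differences between clones of any origin, and the labels name neither the edited genes nor how the control clones were made. Both groups were handled alike: 4 days on permeable membranes with 2% serum, insulin, dexamethasone, triiodothyronine, epidermal growth factor, selenite and transferrin, and then 3 days with 0.1 nM dDAVP, an analog of vasopressin acting on the V2 receptor, in medium free of serum and hormones. The comparison asks how expression under dDAVP differs in clones labelled as PKA double knockouts, and no library without dDAVP was analysed here.

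Principal cells take up water through Aqp2, whose gene vasopressin switches on through cyclic AMP. Which cells can transcribe Aqp2 is set by factors that bind its promoter and by factors that hold the epithelium in its differentiated state. GATA factors bind the letters GATA, factors of the ETS family bind a GGAA core, KLF factors bind CACCC-rich DNA, and forkhead, Grainyhead and CP2 factors each have motifs of their own. Elf3, Elf5 and Ehf are the ETS factors restricted largely to epithelia, Grhl2 drives genes of tight and adherens junctions, and Tfcp2l1 is needed for the mixed cell types of the collecting duct to form.

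The promoters show where such motifs lie in the gene whose control these factors are tied to. They are also given for members whose clone values, as reads scaled to library size, did not overlap between the groups. RefSeq windows (GRCm38.p6) were found for 6 of the 9 members and for Aqp2; Ehf, Klf5 and Grhl2 had no entry. The windows printed are the 250 bases before the start site, 5′ to 3′ on the gene's strand, of Aqp2 (chr15:99578806-99579055, plus strand), Tfcp2l1 (chr1:118627695-118627944, plus strand) and Elf3 (chr1:135258473-135258722, minus strand). The RefSeq start of Elf3 lies within the transcript of the deposited table. Capitals mark matches on either strand to short motifs. For the GATA factors these were AGATAA and, with a different first letter, TGATAA. The ETS factors were searched by the letters GGAAG, the GGAA core with a further letter, so other GGAA cores are left unmarked and uncounted. The KLF factors were searched by the letters CACCC, a common form of their site. The forkhead motif was TGTTTAC, and the motif of the Grainyhead factors was AACCNGTT. The core of the cyclic AMP response element was searched as TGACG.
Aqp2: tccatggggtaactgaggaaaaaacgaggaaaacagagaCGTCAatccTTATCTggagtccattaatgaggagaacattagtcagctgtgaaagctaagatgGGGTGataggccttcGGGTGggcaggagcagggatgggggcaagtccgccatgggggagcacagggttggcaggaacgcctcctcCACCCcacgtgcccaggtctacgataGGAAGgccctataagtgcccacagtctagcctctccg
Tfcp2l1: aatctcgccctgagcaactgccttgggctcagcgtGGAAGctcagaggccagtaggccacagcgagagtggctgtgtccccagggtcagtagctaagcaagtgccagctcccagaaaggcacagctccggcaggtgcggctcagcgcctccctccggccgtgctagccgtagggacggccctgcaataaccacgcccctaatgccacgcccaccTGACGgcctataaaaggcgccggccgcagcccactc
Elf3: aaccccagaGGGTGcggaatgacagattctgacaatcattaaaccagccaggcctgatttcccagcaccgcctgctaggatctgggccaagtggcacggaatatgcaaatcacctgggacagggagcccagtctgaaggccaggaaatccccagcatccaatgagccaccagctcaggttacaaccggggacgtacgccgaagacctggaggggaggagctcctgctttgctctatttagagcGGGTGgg
The Aqp2 window held 1 GATA match, AGATAA on the opposite strand beginning 202 bases before the start, and 1 GGAAG match 37 bases before it. It also held 3 CACCC matches and 1 TGACG match, the latter on the opposite strand 211 bases before the start. Neither the FOXA nor the Grainyhead letters occurred in it. A CP2 motif was not searched. The Tfcp2l1 window had 1 GGAAG and 1 TGACG match, and the Elf3 window had 2 CACCC matches; no matches in these windows shared bases. Short motifs are common: over 32851 windows of the same length, 16.6% held AGATAA or TGATAA, 64.1% GGAAG, 52.0% CACCC, 17.8% TGACG, 3.17% TGTTTAC and 1.79% AACCNGTT. A match describes letters and says nothing of binding in these cells.

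The depth was 28596444 to 42515838 reads assigned to genes per library. In control clone 1 and dKO clone 3 fewer genes were seen than in the remaining 4 libraries, with no read on 2443 and 2363 genes against 863 to 1045, so each member is also given without these 2 libraries. Prkaca, a PKA catalytic subunit gene, had 75.8 to 133 CPM (reads scaled to library size) in control and 6.65 to 8.49 CPM in dKO clones, whereas Prkacb had 121 ± 14.7 and 103 ± 3.43 CPM (SD, n = 3, as throughout; log2 fold change of Prkacb -0.23, adjusted p = 0.939 by limma). These RNA levels do not show that PKA was lost. Of 16683 genes tested with limma, 28 passed at a Benjamini-Hochberg adjusted p under 0.05, which is 0.168% of those tested. Principal-cell markers were present only in part: of 15 listed genes in the table, Scnn1a, Sgk1, Npnt and Atp1b1 were abundant, while Aqp3 had 1.48 and Kcnj1 0.642 CPM in control clones. The 11 mesenchymal, endothelial and leukocyte markers in the table together came to 6.11 to 17.2 CPM in control and 4.07 to 12.7 CPM in dKO clones.

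All 9 members passed the filter on low reads, and none passed the test between dKO and control clones (limma). At an unadjusted p under 0.05, 1 member was higher (Tfcp2l1) and 2 were lower (Klf5, Grhl2) in dKO clones, against 2.40% of all genes tested higher and 3.84% lower. In CPM, the 3 dKO clones lay wholly above the control clones for Tfcp2l1 and wholly below them for Klf5, Grhl2 and Elf3. Of all genes tested, 5.15% lay wholly above and 5.67% wholly below. The other 5 members overlapped between the groups. In the deposited FPKM, a level per transcript length, only Klf5 of these 4 stayed apart, so the separation of the rest depended on how libraries were scaled. Tfcp2l1 had 30.6 FPKM in control clone 1 and 27.5 in dKO clone 2. Grhl2 had 12.5 FPKM in control clone 2 and 15.5 in dKO clone 3, and Elf3 had 28.0 and 36.9 there. The median log2 fold change of the 9 was -0.21, beside -0.001 over all genes tested; fold changes are dKO over control throughout. Aqp2 itself had 399, 140 and 157 CPM in control clones 1, 2 and 3 and 3.39, 2.72 and 1.82 CPM in dKO clones 1, 2 and 3, and it fell by a log2 fold change of -6.30 (SE 0.35, adjusted p = 1.59e-05 by limma). In bulk RNA, fewer cells making a transcript and less of it per cell cannot be told apart. Of the 8 members in the authors' deposited table, Klf5 and Tfcp2l1 had a false discovery rate under 0.05, in a table where 3.47% of 10190 genes did.

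**Figure D1:**
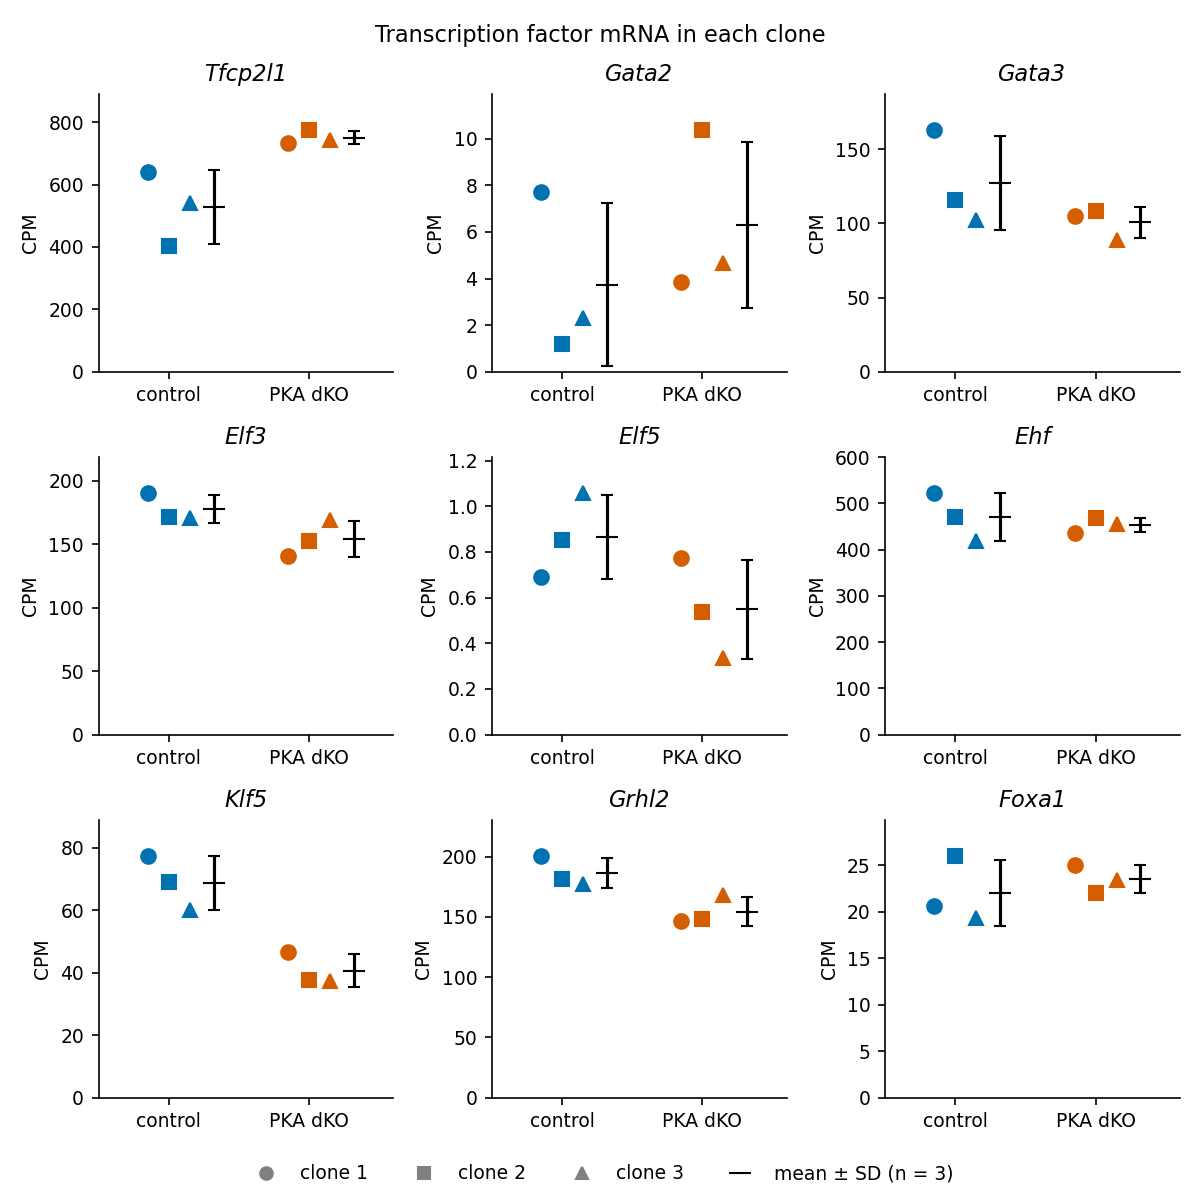
CPM (linear axis from 0) of each factor in the 3 control clones (blue) and the 3 PKA dKO clones (orange), 1 point per clone, with the mean and SD of each group beside the points. Klf5, Grhl2 and Elf3 lie lower in each dKO clone than in any control clone and Tfcp2l1 lies higher, while the 2 groups overlap for the other 5.

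Klf5, a zinc finger factor of proliferating and barrier epithelia, had the lowest p of the members. The gene (ENSMUSG00000005148.8, transcript ENSMUST00000005279.6; GRCm38 chr14:99298691-99313405, plus strand, 4 exons) had 77.4, 69.0 and 60.1 CPM in control clones 1, 2 and 3 and 46.7, 37.8 and 37.5 CPM in dKO clones 1, 2 and 3. The lowest control clone thus stood clearly above the highest dKO clone. The means were 68.8 ± 8.67 and 40.7 ± 5.24 CPM, 1.69-fold lower (95% interval from 1.35 to 2.12). In limma this was a log2 fold change of -0.76 with an SE of 0.15, an unadjusted p of 3.16e-04 and an adjusted p of 0.111. Some other analyses placed Klf5 past the threshold and others did not. In the authors' deposited table its log2 fold change was -0.77 with a false discovery rate of 1.30e-04. DESeq2 on the recovered reads gave an adjusted p of 1.09e-03 (1.59% of genes called) and edgeR's exact test 3.07e-03 (0.923% called). In contrast, edgeR's quasi-likelihood test gave 0.116, limma-voom 0.111 and limma on log2(FPKM + 0.1) 0.954. Leaving out single libraries moved the log2 fold change between -0.86 and -0.66, with adjusted p of 0.0564 to 0.318 by limma. Without control clone 1 and dKO clone 3 it was -0.60 (adjusted p = 0.0161 by limma, in a fit that called 3.57% of genes).

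Klf5 lies on chromosome 14. The genes of this chromosome had a median log2 deviation from their means of -0.44 (dKO clone 3) and 0.28 (control clone 1). From each chromosome value, here and below, the library's median deviation over all genes tested was subtracted. Klf5 itself, without that subtraction, deviated by -0.49 and 0.56 in these 2 libraries. In dKO clone 2 it deviated by -0.48, while the chromosome stood at 0.08 there. With each library's chromosome medians removed, the log2 fold change of Klf5 was -0.54 (adjusted p = 0.218 by limma). In dKO clone 1 Klf5 deviated by -0.17, and chromosome 14 stood at 0.07. The part of chromosome 14 in the values of Klf5 was not tested.

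By the smallest root mean square difference between log2 profiles over the 6 libraries, the genes most like Klf5 among 9111 with at least 10 CPM were Akr1c19 (0.10), Lgals3 (0.10) and Pck2 (0.10). Akr1c19 ranged from 48.7 to 57.7 CPM over the control clones and from 27.1 to 30.9 CPM over the dKO clones. Its limma adjusted p was 0.0524, and Lgals3 and Pck2, both also on chromosome 14, stood at 0.104 and 0.114.

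Tfcp2l1, a CP2 factor of the collecting duct, was the only member whose CPM was higher in all dKO clones than in any control clone. The gene (ENSMUSG00000026380.10; chr1:118627946-118685168, plus strand, 15 exons) had 639, 403 and 542 CPM in control clones 1, 2 and 3. In dKO clones 1, 2 and 3 it had 735, 776 and 742 CPM, a narrow range above the highest control. The means were 528 ± 119 and 751 ± 22.0 CPM, 1.45-fold higher (95% interval from 1.10 to 1.90). In limma this was a log2 fold change of 0.53 with an SE of 0.18, an unadjusted p of 0.0123 and an adjusted p of 0.489. Its false discovery rate in the authors' deposited table was 0.0212, at a log2 fold change of 0.50. The size rested in part on control clone 2, the lowest of the 6: without it the log2 fold change was 0.35. Without control clone 1 and dKO clone 3 it was 0.71 (adjusted p = 6.91e-03 by limma, in a fit that called 3.57% of genes). In log2, dKO clone 3 exceeded control clone 1 by 0.22. Chromosome 1 was near 0 in every library (-0.04 to 0.04), and removing chromosome medians left 0.54.

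Grhl2, the Grainyhead factor of junction genes, had 201, 181 and 178 CPM in control clones 1, 2 and 3 and 147, 148 and 168 CPM in dKO clones 1, 2 and 3. The groups did not overlap, but dKO clone 3 was closer to the lowest control clone than the control SD. The means were 186 ± 12.4 and 154 ± 12.0 CPM (log2 fold change -0.27, SE 0.12; limma unadjusted p = 0.0478, adjusted p = 0.783). The gene (ENSMUSG00000022286.16; chr15:37233036-37363569, plus strand, 16 exons) lies on chromosome 15, where the median log2 fold change of 702 tested genes was -0.14. With chromosome medians removed, that of Grhl2 was -0.14. The deposited table of the authors gave -0.30 at a false discovery rate of 0.208.

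**Figure D2:**
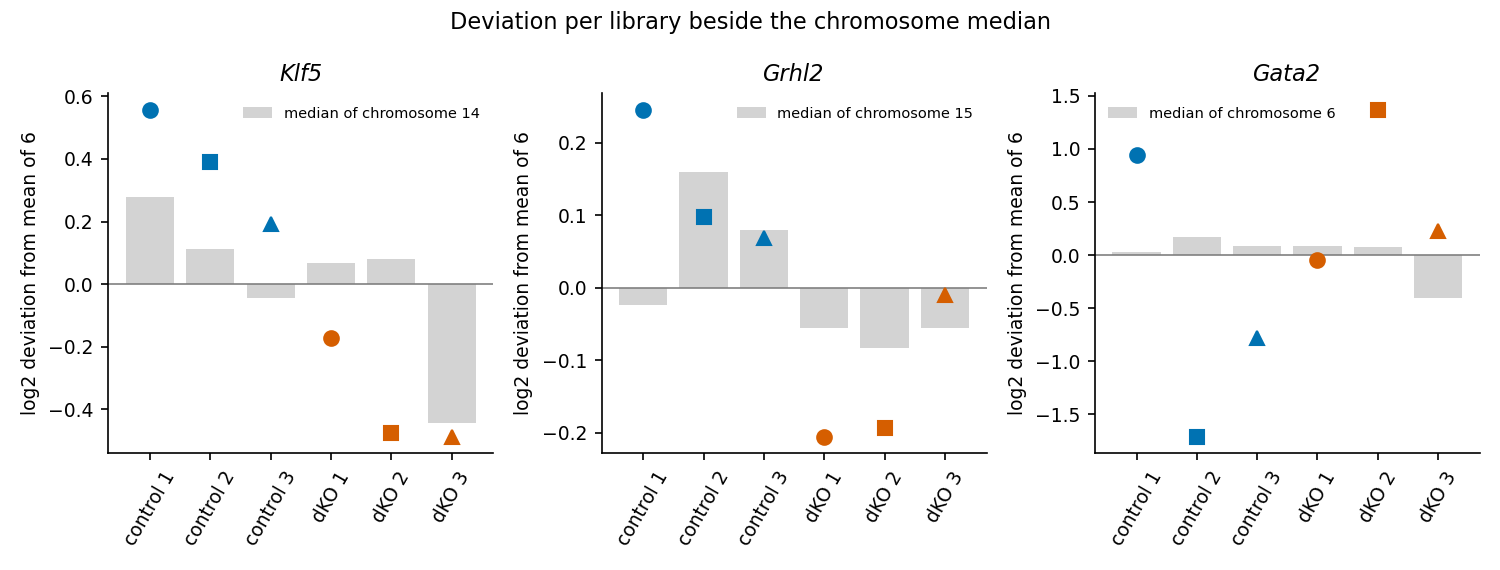
Points give the log2 deviation of Klf5, Grhl2 and Gata2 from their mean over 6 libraries (blue control, orange PKA dKO clones). Gray bars give the median deviation of all tested genes of the same chromosome, less the library's median over all genes tested. That library median was not subtracted from the points, and the vertical scales differ. Klf5 is at -0.48 in dKO clone 2, where chromosome 14 is at 0.08, and at -0.49 in dKO clone 3, where the chromosome is at -0.44.

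Among the epithelial ETS factors, Ehf, the most abundant, had 523, 470.3 and 418 CPM in control clones 1, 2 and 3 and 436, 467 and 455 CPM in dKO clones 1, 2 and 3. The dKO values all fell inside the control range. The log2 fold change was -0.05 (SE 0.14, adjusted p = 1.00 by limma), and its 95% interval spans 0.782-fold to 1.19-fold of the control level, so a larger change than that lies outside the interval; the sign turned when control clone 1 was left out (0.03). Elf3 (ENSMUSG00000003051.13; chr1:135253575-135258568, minus strand, 9 exons), which can bind the Aqp2 promoter, had 191, 172 and 171 CPM in control clones 1, 2 and 3 and 141, 153 and 169 CPM in dKO clones 1, 2 and 3. The highest dKO clone and the lowest control clone were nearly equal, so the separation rests on a small gap. Its log2 fold change was -0.21 (SE 0.13, adjusted p = 0.966 by limma), with a 95% interval of 0.716-fold to 1.05-fold.

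Elf5, the ETS factor that marks principal cells in the kidney, was hardly detected. It had 25, 26 and 46 reads in control libraries 1, 2 and 3 and 31, 17 and 12 reads in dKO libraries 1, 2 and 3. These correspond to 0.692, 0.851 and 1.06 CPM and to 0.772, 0.538 and 0.337 CPM, with overlap between the groups. The log2 fold change of -0.66 had an SE of 0.59 (adjusted p = 1.00 by limma), and the 95% interval runs from 0.258-fold to 1.56-fold, so the data fix neither the direction nor the size of a difference. It was -0.34 without dKO clone 3 and -0.92 without dKO clone 1. Elf5 was absent from the authors' deposited comparison. Ehf and Elf5 are neighbours on chromosome 2, facing away from each other (Ehf ENSMUSG00000012350.15, chr2:103263433-103303278, minus strand, 9 exons; Elf5 ENSMUSG00000027186.14, chr2:103411688-103450986, plus strand, 7 exons) and 108.4 kb apart. Despite this, the FPKM of Ehf, a level per transcript length, was 237 to 617 times that of Elf5 within single libraries.

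Gata3, the GATA factor that guides the ureteric bud and its derivative the collecting duct, had 163, 116 and 103 CPM in control clones 1, 2 and 3 and 105, 109 and 88.5 CPM in dKO clones 1, 2 and 3. Control clone 1 was high and the other 5 clones lay close together. The means were 127 ± 31.9 and 101 ± 10.7 CPM (log2 fold change -0.31, SE 0.17, adjusted p = 0.933 by limma). The log2 fold change was -0.12 without control clone 1 and -0.18 without dKO clone 3. The difference was -0.88 for dKO clone 3 against control clone 1 and -0.01 without these 2 libraries, so it was found almost wholly between those libraries. Gata3 (ENSMUSG00000015619.10) lies at chr2:9857078-9878600 on the minus strand with 6 exons.

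Gata2, a GATA factor for which roles in Aqp2 transcription are known in the collecting duct, was low and varied most of the members. It had 7.72, 1.18 and 2.30 CPM in control clones 1, 2 and 3 and 3.86, 10.4 and 4.69 CPM in dKO clones 1, 2 and 3. High and low clones occurred in both groups: control clone 1 exceeded dKO clones 1 and 3. The log2 fold change was 1.03 (SE 0.59, adjusted p = 0.950 by limma), with a 95% interval of 0.827-fold to 5.06-fold. Leaving out single libraries moved it between 0.43 (without control clone 2) and 1.76 (without control clone 1). Without control clone 1 and dKO clone 3 it was 1.93 (adjusted p = 0.0115 by limma, in a fit that called 3.57% of genes). That fit leaves out control clone 1, the control clone that lay within the dKO range. For dKO clone 3 against control clone 1 the difference was -0.71, so the direction depended on which clones were set side by side. The gene (ENSMUSG00000015053.14; chr6:88198334-88207030, plus strand, 6 exons) lies on chromosome 6, which stood at -0.40 in dKO clone 3. The profiles most like that of Gata2 were those of Tacc1, Rasl11a and Col4a1, at root mean square differences of 0.56 to 0.60 log2 units, far looser than for Klf5.

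Foxa1, a pioneer factor that opens chromatin in many epithelia, had 20.6, 26.0 and 19.4 CPM in control clones 1, 2 and 3 and 25.1, 22.0 and 23.4 CPM in dKO clones 1, 2 and 3. The groups overlapped. The log2 fold change was 0.11 (SE 0.16, adjusted p = 1.00 by limma), with a 95% interval of 0.841-fold to 1.38-fold. Leaving out single libraries moved it between 0.02 (without control clone 3) and 0.23 (without control clone 2). Foxa1 (ENSMUSG00000035451.7) lies at chr12:57540631-57546121 on the minus strand with 2 exons.

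**Figure D3:**
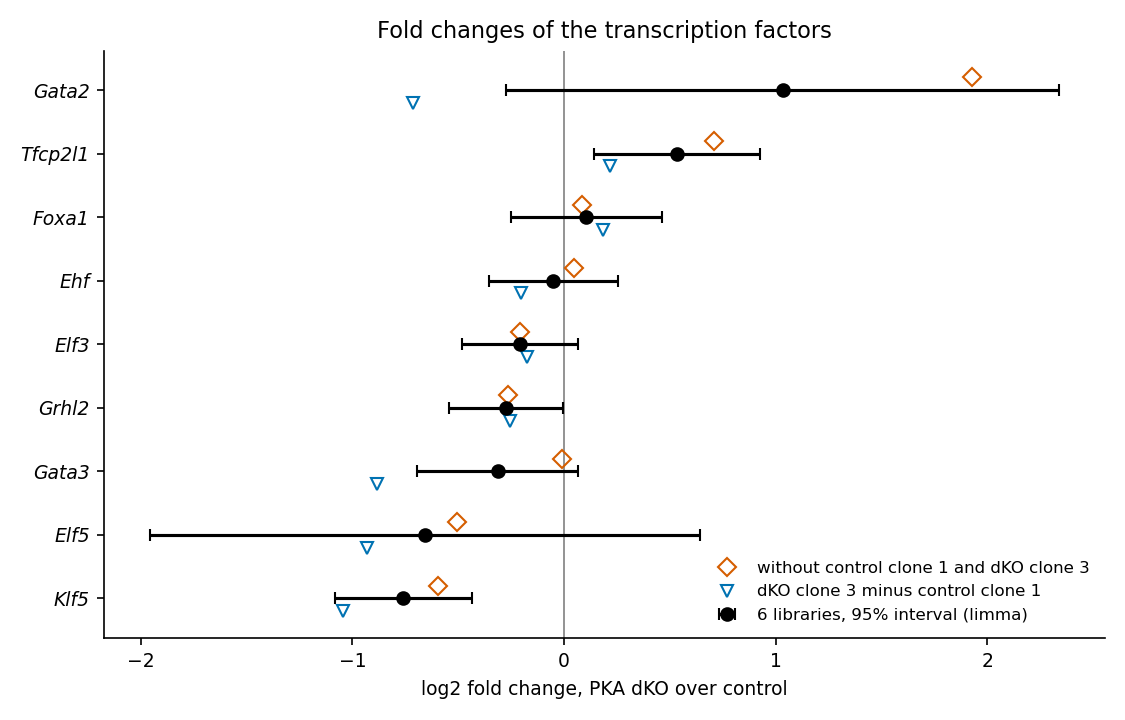
Log2 fold change, PKA dKO over control, with 95% intervals from limma over 6 libraries (black), the estimate without control clone 1 and dKO clone 3 (orange diamonds), and the difference between those 2 libraries (blue triangles). The triangle and diamond of Gata2 lie on opposite sides of 0 (-0.71 and 1.93), and those of Klf5 both lie below 0 (-1.05 and -0.60).

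Levels of different genes were compared by the deposited FPKM within each library. Ehf ranked highest of the 9 in all 6 libraries, at 34.4 to 52.0 FPKM. Elf3 came next in all 3 control clones and in dKO clone 3, while Tfcp2l1 came next in dKO clones 1 and 2. Gata3, Grhl2 and Klf5 formed a middle group whose order changed between clones, at 7.22 to 22.6 FPKM, and their ranges overlapped. Klf5 was the lowest of these 3 in each dKO clone and in none of the control clones. Foxa1 ranked 7 throughout, at 2.26 to 3.33 FPKM. Gata2 (0.112 to 0.961 FPKM) and Elf5 (0.070 to 0.157 FPKM) shared the bottom, and they changed places in control clone 2.

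The rule had not used ratios within a library, which do not depend on how libraries are scaled; the pairs given here were picked after the values were seen. Tfcp2l1 had 1.53, 1.08 and 1.67 times the FPKM of Klf5 in control clones 1, 2 and 3. In dKO clones 1, 2 and 3 the ratio was 2.92, 3.81 and 3.67. Against Grhl2 the ratio of Tfcp2l1 was 1.19 to 1.69 in control and 2.35 to 2.79 in dKO clones. In CPM, Tfcp2l1 lay wholly higher and Klf5 and Grhl2 wholly lower in dKO clones. The groups therefore had to separate in these ratios, which restate that result. Gata3 exceeded Gata2 by 23.5 to 109 times in control and by 11.6 to 30.2 times in dKO clones, which overlap.

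Each member's share of the summed FPKM of its own family was then compared between libraries. Gata3 took 88.6% to 94.7% of the summed FPKM of the 6 GATA genes, and Gata1, Gata5 and Gata6 were each at or below 0.143 FPKM. Ehf took 53.1% to 58.9% and Elf3 40.8% to 46.5% of the 4 epithelium-specific ETS genes, leaving Elf5 and Spdef at 0.157 FPKM or less in each library. Grhl2 took 79.6% to 85.2% of the 3 Grainyhead genes, ahead of Grhl1. Tfcp2l1 took 64.6% to 75.0% of the 3 CP2 genes, the rest being Tfcp2 and Ubp1. Foxa1 took 90.0% to 97.9% of the 3 Forkhead A genes. In the KLF family Klf6, an early response factor, led with 25.3 to 47.0 FPKM, and Klf5 held 8.62% to 17.1% of 15 genes. For control clones 1, 2 and 3 the share of Klf5 came to 16.4%, 17.1% and 15.5%. For dKO clones 1, 2 and 3 it came to 12.5%, 10.4% and 8.62%, each below every control clone.

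**Figure D4:**
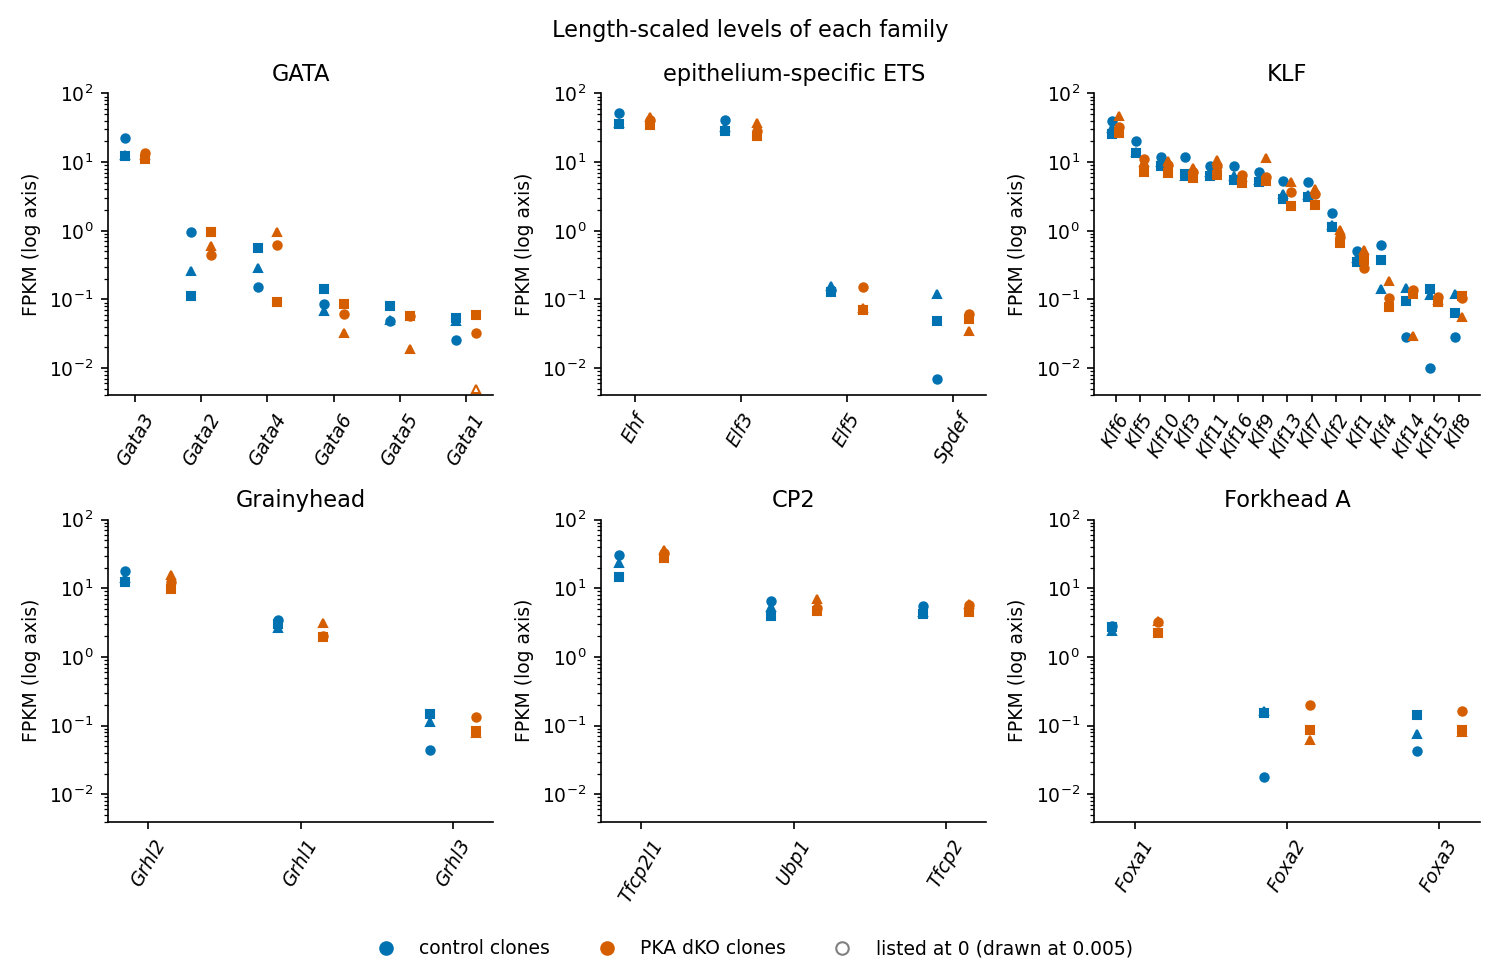
Deposited FPKM (log axis) of each family's genes, 1 point per clone (blue control, orange PKA dKO; marker shape gives the clone number as in the plot of CPM by clone). Gata3, Ehf with Elf3, Grhl2, Tfcp2l1 and Foxa1 stand above their paralogs, and Klf6 stands above Klf5.

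None of the 55 paralogs tested from the GATA, ETS, KLF, Grainyhead, CP2 and forkhead families listed passed the test (limma, 0.168% of all genes called). At an unadjusted p under 0.05, 0 of the 55 were higher and 5 lower, beside 2.40% and 3.84% of all genes tested. Of the 14 KLF paralogs tested, 2 were lower at an unadjusted p under 0.05. They were Klf2, a factor of quiescence (6.47 ± 1.00 to 3.89 ± 0.31 CPM, log2 fold change -0.72, adjusted p = 0.510 by limma), and Klf4, a differentiation factor (2.89 ± 1.64 to 0.912 ± 0.281 CPM, -1.44, adjusted p = 0.612 by limma). Grhl1, the other expressed Grainyhead gene, stood at -0.41 (26.9 ± 3.60 to 20.3 ± 3.63 CPM), and Tfcp2, a close expressed relative of Tfcp2l1, at 0.16. Elf1, an ETS factor not restricted to epithelia, was at -0.50 (203 ± 48.2 to 142 ± 18.8 CPM). It too lies on chromosome 14 and stood at -0.18 without control clone 1 and dKO clone 3. The median log2 fold change was -0.10 over the 14 KLF and also over the 17 ETS genes tested. Among 16 forkhead genes tested, Foxk1 was at -0.67 (53.9 ± 18.7 to 32.6 ± 1.08 CPM) and Foxj1, the factor of motile cilia, at 0.55. The GATA paralogs were low throughout, Gata4 at 3.10 ± 2.35 and 4.37 ± 3.15 CPM and Trps1 at 1.87 ± 1.16 and 1.61 ± 0.89 CPM.

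Other factors of the same tissue were likewise without a call. None of 29 further renal epithelial factors, 21 further factors tied to Aqp2 transcription or 10 GATA cofactors passed (limma); at an unadjusted p under 0.05 2 of these 60 genes were higher and 5 lower, beside 2.40% and 3.84% of all genes tested. The fold changes of the AP-1 subunit genes Jun and Junb had opposite signs: Jun was at 0.53 (92.6 ± 13.2 to 133 ± 8.09 CPM, adjusted p = 0.249 by limma) and Junb at -0.42 (283 ± 44.3 to 211 ± 32.0 CPM, adjusted p = 0.608 by limma). Tal1, which joins GATA factors in complexes, was at 0.91 (8.18 ± 3.68 to 14.5 ± 1.86 CPM, adjusted p = 0.439 by limma). Lmo4, a LIM-domain adaptor, was at -0.32, and Dmrt2, a factor of intercalated cells, at -0.63.

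The epithelial programme that Grhl2 and the ETS factors are known for, junction, keratin and protease genes, also gave no call among its 22 tested genes (limma). Of these, 5 had a positive and 17 a negative fold change, with a median of -0.13, beside 8313 positive and 8370 negative among all genes tested. At an unadjusted p under 0.05, 3 of the 22 were lower, beside 3.84% of all genes. Ovol2, an epithelial repressor of mesenchymal genes, had 6.32 ± 1.06 and 3.60 ± 0.53 CPM (log2 fold change -0.80, adjusted p = 0.475 by limma). Krt19, a keratin of simple epithelia, had 237 ± 9.41 and 191 ± 24.9 CPM (-0.31, adjusted p = 0.714 by limma). The summed level of the 22 genes was 8156 to 10200 CPM in control and 7512 to 8812 CPM in dKO clones, which overlap. Of the 6 opposing repressor genes, Twist1 was at 1.88 (3.10 ± 2.21 to 8.50 ± 0.87 CPM, adjusted p = 0.472 by limma), with 0.581 CPM in control clone 1 against 4.06 and 4.67 CPM in the other control clones. Zeb2 had the opposite sign, at -0.83 (2.92 ± 2.31 to 1.37 ± 0.80 CPM, adjusted p = 1.00 by limma). Snai1, named after its values were seen, was at -1.08 with 0.756 and 0.337 CPM. The 6 together came to 2.16 to 12.0 CPM in control and 8.78 to 13.1 CPM in dKO clones.

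Some lists of cell type markers gave a single call in limma, where 0.168% of all genes tested were called. Aqp2 was the single call of 15 principal-cell markers, with a median log2 fold change of 0.01 over the list. At an unadjusted p under 0.05 (limma), 0 of the 15 were higher and 4 lower, beside 2.40% and 3.84% of all genes tested. Aqp4, a second water channel gene named here after its values were seen, was at -3.72 (6.65 ± 4.96 to 0.340 ± 0.185 CPM, adjusted p = 0.128 by limma). Aqp4 passed with DESeq2, edgeR's exact test, log2(FPKM + 0.1) and the clone number as a replicate block. It also passed without control clone 2, and without control clone 1 and dKO clone 3. Rhcg, an ammonia transporter, was the single call of 17 intercalated-cell markers (4.53, SE 0.58, adjusted p = 0.0151 by limma, 0.142 by limma-voom). The median log2 fold change of these 17 was -0.25, with 7 positive and 10 negative. At an unadjusted p under 0.05 (limma), 1 was higher and 2 were lower. Foxi1, the factor that defines intercalated cells, was low and overlapped between the groups (0.776 ± 0.511 and 0.272 ± 0.256 CPM). Its log2 fold change was -1.46 (SE 0.98, limma unadjusted p = 0.165). Lrp2, which encodes megalin, gave the single call of 10 proximal tubule and thick limb markers (1.13, SE 0.16, adjusted p = 0.0252 by limma). It lost the call without control clone 3, dKO clone 1 or dKO clone 2 (adjusted p = 0.0651, 0.0557 and 0.125 by limma). The median log2 fold change of these 10 markers was -0.13, with 3 positive and 7 negative. At an unadjusted p under 0.05 (limma), 1 was higher and 1 lower. Of the 11 mesenchymal, endothelial and leukocyte markers tested, none passed, and the leukocyte gene Ptprc had 2.74 ± 0.84 and 1.57 ± 0.64 CPM. The part of these markers in the members' values was not tested.

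**Figure D5:**
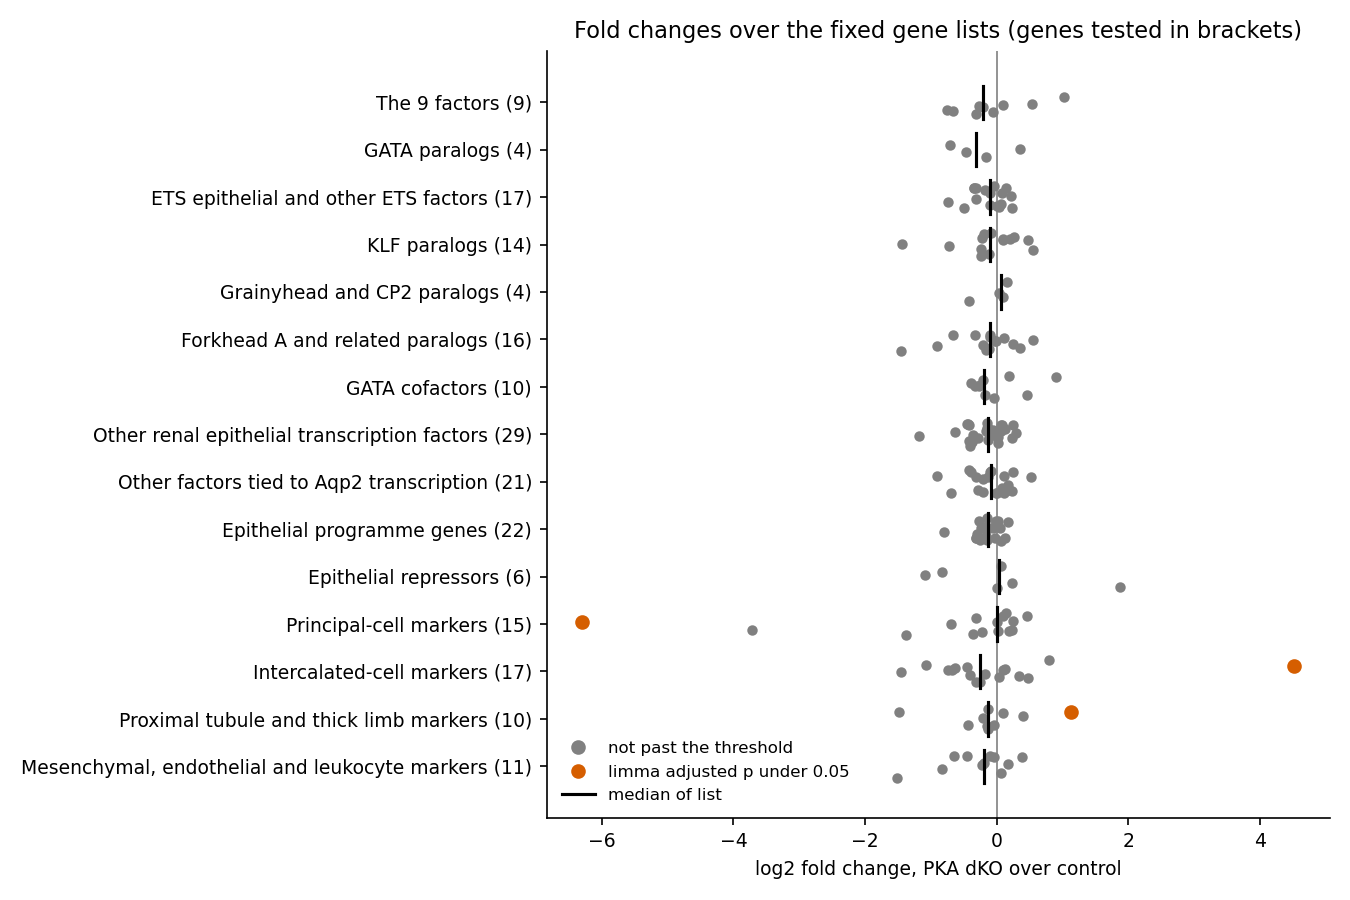
Log2 fold change, PKA dKO over control, of every tested gene in the 9 factors and in each list (number tested in brackets), with black lines at the medians and orange points for genes past an adjusted p of 0.05 in limma. The orange points are Aqp2 (-6.30), Rhcg (4.53) and Lrp2 (1.13), and the medians of all lists lie between -0.31 and 0.07.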

How the data were processed

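Per the labels' protocols, ribosomal RNA was removed from 262 ng of total RNA and libraries were stranded. Per the submitters' processing notes, STAR 2.5.2a, SAMtools, HOMER 4.8, edgeR and GRCm38.p5 were used; their roles are not given, nor is the use of strand, so reads of antisense genes that overlap Elf3, Gata3 and Grhl2 cannot be told apart. The columns headed as read counts are a signal: the authors scaled each library to a common total, and every value was a whole multiple of a library's step (100% within 0.01 scaled reads), which recovered the reads. FPKM values, and the log2 fold changes, p-values and false discovery rates of the comparison table, are as deposited by the authors.

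Since the files hold scaled values and not raw counts, edgeR's quasi-likelihood test on the recovered reads was an alternative and not the main test. Groups were compared with limma-trend in limma 3.58.1 under R 4.3.3. It took log2 of the scaled reads after division by TMM factors (edgeR 4.0.16; 0.909 to 1.07), pseudocount 1 (0.055 CPM), which understates changes of low genes, over 16683 genes kept by filterByExpr (minimum 10 reads, total 15), with group as the only term and Benjamini-Hochberg adjustment. CPM used recovered reads and TMM-adjusted totals. A limma p-value here sets the difference against the variation among 3 clones in each group. The variance of each gene was drawn towards a trend over all genes tested, so it does not rest on that gene's clones alone. DESeq2 1.42.0, limma-voom and other filters, factors and pseudocounts were alternatives; edgeR's exact test was chosen after seeing the data. The limma step was also run on simulated data in which all genes had the same dispersion. The simulation held no libraries set apart and no chromosome shifts, so it does not bear on either. Members and lists were chosen with earlier results of the 6 libraries known. Named were the members, Aqp2, Prkaca, Prkacb, each list's calls or otherwise its 2 genes of lowest p with at least 1 CPM, and the 3 nearest profiles of the member with the lowest p and of that with the widest range; paralogs in family shares, the abundant or low principal-cell markers and Foxi1 were named after their values were seen. A gene that this rule names is not reported here. Coordinates are those of the deposited table; gene identifiers and exon counts come from GENCODE M21.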

Additional observations from a re-analysis of the deposited data

How the results depend on the processing

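Over 21 alternatives, 179 of 187 fold changes of the 9 factors that had an adjusted p kept their sign and their side of the threshold, 6 newly passed and 2 changed sign. The sign changes were those of Ehf, to 0.045 without control clone 1 and dKO clone 3 and to 0.03 without control clone 1; leaving out 1 library gave -0.13 to 0.03. The number of factors past the threshold, 0 in the limma test over 6 libraries, was 1 with DESeq2, 1 with edgeR's exact test, 1 with the replicate block (Klf5 in each case) and 3 without control clone 1 and dKO clone 3 (Klf5, Tfcp2l1 and Gata2). The number of genes past the threshold, 28, was 17 with no library factors, 154 with edgeR's exact test, 209 with DESeq2, 91 with log2(FPKM + 0.1), 71 with the library split as a term and 595 without control clone 1 and dKO clone 3. Leaving out 1 library at a time gave 11 (without dKO clone 2) to 138 genes (without control clone 1) and 0 factors; without dKO clone 1 it gave 13. Of the gene lists, those of the paralogs, GATA cofactors, renal factors and mesenchymal, endothelial and leukocyte markers had 0 calls in each setting. The principal-cell markers, with 1 call, had 2 with DESeq2, edgeR's exact test, log2(FPKM + 0.1) or the replicate block, 6 without control clone 1 and dKO clone 3, and 1 to 2 without 1 library. The intercalated-cell markers, with 1, had 0 with limma-voom and 4 without those 2 libraries. The proximal tubule and thick limb markers, with 1, had 0 with no filter and with log2(FPKM + 0.1), and 0 to 1 without 1 library. The further Aqp2 factors, with 0, had 1 (Jun) with DESeq2, 2 without the 2 libraries, and 0 to 1 without 1 library. The epithelial programme, with 0, had 2 without the 2 libraries, and the repressors, with 0, had 1 (Twist1) there, with log2(FPKM + 0.1) and with the replicate block. With the clone number as a replicate block the number of genes past the threshold was 196, and Klf5 had an adjusted p of 9.41e-03. The labels do not say whether the numbers pair the clones. Same-numbered clones correlated at -0.36, 0.64 and -0.34 in their deviations, and control clone 1 with dKO clone 3 at 0.66. These values cannot settle the pairing, since the 2 libraries with fewer genes seen carry different numbers. Signs also turned for genes that are not members when 1 library was left out: Gata4 ranged from -0.20 to 1.23, Trps1 from -0.70 to 0.35, Kdr from -0.53 to 0.33 and Tacc1 from -0.21 to 0.90. Without control clone 1 and dKO clone 3, Gata4 was at -0.74 and Kdr at 0.053. The cause of these changes was not tested. Elf5 rests on 12 to 46 reads per library, and DESeq2 gave it no adjusted p.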
